A study of Mus musculus with 2 samples.

Results

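Homeobox, Gata and forkhead genes encode DNA-binding regulators that set where along the body a gut segment lies and which cell type forms there. In the table of the series, 133 of 18919 genes carried a symbol of the Hox, Cdx, Pitx, Nkx, Pax, Dlx, Irx, Msx, sine oculis (such as Six5), Meis, Pbx, Isl, Lhx, Pdx1, Barx, Satb, Onecut, Gata or forkhead (Foxa to Foxq) families. They comprised 27 Hox genes, 2 Cdx genes, 7 Meis and Pbx genes, 50 other homeobox, Pax and Satb genes, 6 Gata genes, 30 forkhead genes and 11 non-coding genes named after a neighbouring member, most of them as antisense or opposite-strand transcripts. The name fits the leading members, but several of the forkhead genes, such as the Foxo, Foxk and Foxj genes, act in most tissues and are not regional regulators.

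Intestinal RNA was sequenced from 2 pools of C57BL/6 mice, each a mixture of RNA from 3 littermates at 2 months of age. The knockout pool had the genotype APCmin; Setd2IEC-/-, which the series title calls Setd2 IEC-deficient. Setd2 places the trimethyl mark on lysine 36 of histone H3, and IEC is the usual short form of intestinal epithelial cell. The control pool had the genotype APCmin; below, knockout and control stand for these pools. Both pools therefore carried the Min mutation of Apc, which leads to intestinal adenomas, and neither was treated. The Cre driver and the stretch of intestine taken are not given in the sources used here. Each genotype had 1 library, so no difference below has a replicate check, and no p-value was computed. Whole tissue was sequenced, so that fewer cells of a type and less RNA per cell cannot be told apart.

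Levels are given in FPKM, fragments per kilobase of transcript scaled to sequencing depth, which corrects for transcript length and so allows levels of different genes to be compared. The libraries held 8646358 expected counts in the knockout pool and 8809678 in the control pool. Setd2 was at 3.47 FPKM in the knockout pool and 6.87 FPKM in the control pool, a ratio of scaled counts of 0.504 with a 95% counting interval of 0.432 to 0.587. All 8 markers of gut epithelium were present, with sums of 6821 FPKM in the knockout pool and 7146 FPKM in the control pool. Single markers went both ways, with count ratios from 0.771 (0.757 to 0.785) for Krt20 to 1.87 (1.74 to 2.01) for Krt18. Counting intervals, here and below, are exact Clopper-Pearson intervals and reflect counting error alone, so the variation from mouse to mouse is not in them.

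Cdx1 and Cdx2 are the caudal-type homeodomain factors that hold intestinal against gastric identity, and Gata4, Gata5 and Gata6 are zinc finger factors of the gut epithelium, with intestinal Gata4 restricted to the proximal small intestine. Hox genes lie in 4 clusters, in which the order of the genes matches their order of expression from front to back, and their proteins bind DNA with the Meis and Pbx cofactors. Forkhead proteins of the Foxa group open chromatin in endoderm, whereas Foxf and Foxl1 belong to the mesenchyme under the epithelium.

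A member was counted as measured when it reached 1 FPKM in at least 1 pool, which 55 of the 133 members did, 46 of them in both pools. A further 8 passed through the knockout pool alone (Foxd3, Foxp3, Gata2, Msx1, Msx1os, Nkx2-1, Nkx6-3 and Pax4) and 1 through the control pool alone (Pbx4). These 9 passed because of the pool in which they were higher, so the counts over measured members describe the filter as well as the pools. The highest levels in the knockout pool were those of Cdx1 (64.3 FPKM), Gata4 (61.8 FPKM), Cdx2 (58.6 FPKM), Pdx1 (54.7 FPKM) and Foxq1 (42.1 FPKM). In the control pool the order was Cdx2 (56.3 FPKM), Gata4 (51.7 FPKM), Cdx1 (45.0 FPKM), Gata6 (38.6 FPKM) and Foxq1 (32.5 FPKM). The plot of levels by pool shows 53 of the measured members.

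**Figure D1:**
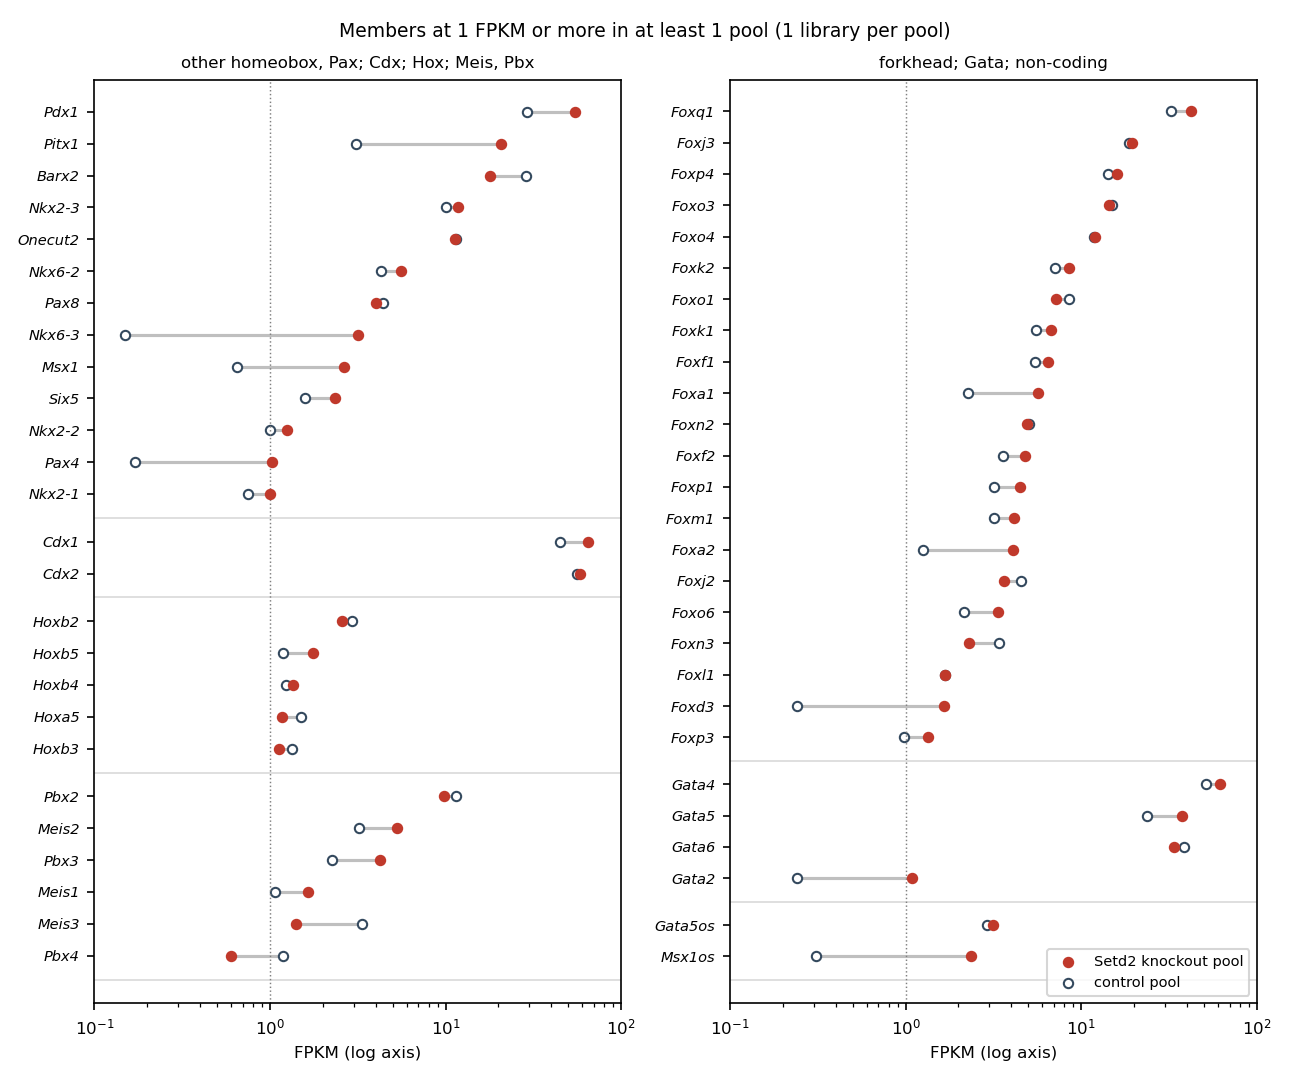
FPKM (log axis) of 53 of the 55 measured members in the knockout pool (filled red points) and the control pool (open points), 1 library each, grouped by family and joined by a grey line. Cdx1, Cdx2, Gata4 and Pdx1 reach the highest levels, and the widest gaps are those of Nkx6-3, Pitx1, Msx1os and Foxd3, all higher in the knockout pool.

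With 1 FPKM added to each value, a log2 ratio (knockout over control) of at least 1, or at most -1, counted as a 2-fold call. By this rule 7 of the 55 measured members were higher in the knockout pool, against 2.78% of the 13253 measured genes of the table, and 0 were lower, against 1.28%. The 7 were Pitx1, Nkx6-3, Msx1, Msx1os, Foxa1, Foxa2 and Foxd3, and 4 of them (Foxd3, Msx1, Msx1os and Nkx6-3) were under 1 FPKM in the control pool. With median ratio scaling in place of FPKM scaling, Foxa1 dropped under the threshold, to a log2 ratio of 0.97. The counting interval lay above 1 for 23 measured members, against 28% of all measured genes, and below 1 for 6, against 12.5%. The log2 ratio was above 0 for 39 of the 55, against 62.5% of all measured genes, and its median was 0.23 over the measured members and 0.08 over all measured genes. These counts have no replicate check, and no cause was tested.

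**Figure D2:**
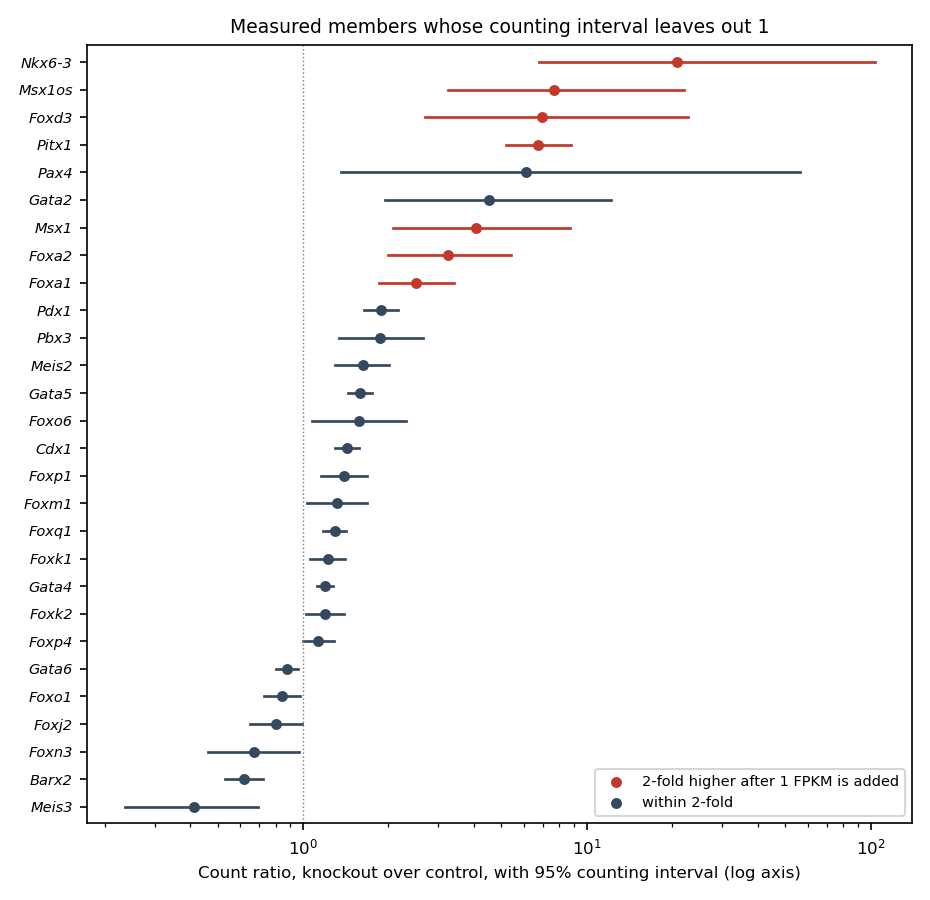
Ratio of scaled expected counts, knockout over control (log axis), with its 95% counting interval, for 28 measured members whose interval leaves out 1. Red marks the 7 members at least 2-fold higher after 1 FPKM was added; Barx2 and Meis3 have the lowest ratios, 0.620 and 0.411.

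Pitx1, a paired-type homeodomain factor of the hindlimb and the pituitary (gene identifier 18740, mm10 chromosome 13, 55825044 to 55836190), had the highest log2 ratio among the members. It was at 20.8 FPKM in the knockout pool, from 441 counts, and at 3.09 FPKM in the control pool, from 67 counts. Its log2 ratio was 2.41 and its count ratio 6.71 (5.18 to 8.81).

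Nkx6-3, a homeodomain factor of endocrine cells of the mouse gastric antrum (identifier 74561), was at 3.15 FPKM in the knockout pool, from 61 counts, and at 0.15 FPKM in the control pool, from 3 counts. Its count ratio of 20.7 had an interval of 6.76 to 103, since so few control counts fix it poorly. Nkx6-2, a close relative, was at 5.58 FPKM in the knockout pool and 4.29 FPKM in the control pool, and its interval (0.946 to 1.80) included 1. Pdx1, required for the pancreas and expressed in duodenum and antrum (identifier 18609, chromosome 5, 147270097 to 147275848), was at 54.7 FPKM in the knockout pool and 29.1 FPKM in the control pool. Its count ratio was 1.88 (1.64 to 2.16), within 2-fold. Foxq1, a forkhead factor of gastric surface cells in mice, was at 42.1 FPKM in the knockout pool and 32.5 FPKM in the control pool (1.29, 1.18 to 1.42). Of the members under 1 FPKM, Onecut3 (0.86 FPKM in the knockout pool, 0.26 in the control pool) and Pax9 (0.60 FPKM in knockout and 0.13 FPKM in control) also had intervals above 1. Onecut2, the paralogue of Onecut3, was at 11.4 FPKM in the knockout pool and 11.5 FPKM in the control pool, and the interval of its count ratio was 0.919 to 1.07. Onecut3, Pax9 and the other members under 1 FPKM named singly were chosen after their values were seen.

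Transcripts of stomach and exocrine pancreas were higher in the same pool as Pitx1, Nkx6-3 and Pdx1. Of 11 stomach genes in the table, 8 were measured and 7 were at least 2-fold higher, and the list summed to 163 FPKM in the knockout pool and 13.6 FPKM in the control pool. All of the 8 but Gkn3 were under 1 FPKM in the control pool and passed the filter through the knockout pool, where they were high, so that the count of calls partly reflects the filter. Gkn1, a gastrokine of the gastric surface, was at 22.2 FPKM in the knockout pool and 0.28 FPKM in the control pool, and Tff2, a trefoil peptide of mucous neck cells, at 27.6 FPKM in knockout and 0.83 FPKM in control. Gkn3 was at 93.9 FPKM in the knockout pool and 10.3 FPKM in the control pool, Tff1 at 1.54 FPKM in knockout and 0.25 FPKM in control (count ratio interval 0.742 to 281, which includes 1), and Atp4a, the proton pump of parietal cells, at 1.31 FPKM in knockout and 0.19 FPKM in control. The stomach markers Gif, Muc5ac and Gkn2 were at 0 in the control pool, and none was at 0 in the knockout pool. All 12 measured genes of the exocrine pancreas were at least 2-fold higher, with sums of 2636 FPKM in the knockout pool and 68.7 FPKM in the control pool. Amy2a5, an amylase, was at 626 FPKM in knockout and 15.1 FPKM in control. Islet transcripts were near 0: Ins1 was at 0 in both pools, Ins2 at 0.26 FPKM in the knockout pool and 0 in the control pool, and Iapp at 0.99 FPKM in knockout and 0.97 FPKM in control. The part of stomach or pancreas tissue in the levels of Pitx1, Nkx6-3, Pdx1, Foxa1 and Foxa2 was not tested.

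**Figure D3:**
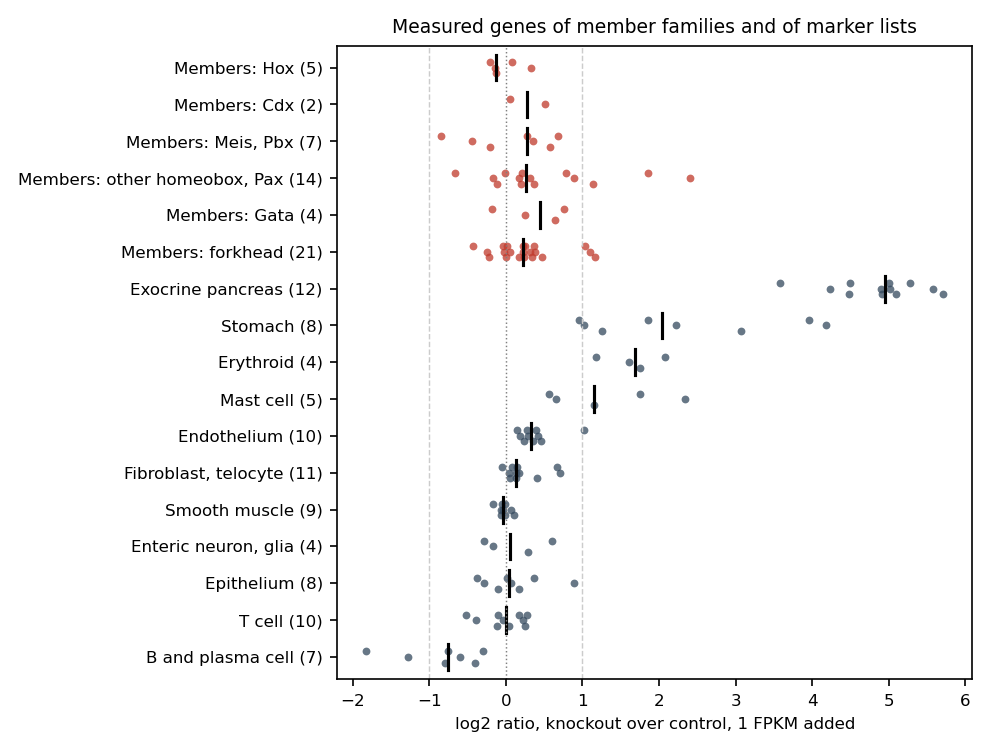
Log2 ratio, knockout over control with 1 FPKM added, of each measured gene in 6 families of members (red) and 11 marker lists (grey), with the number of genes in brackets and the median as a black bar; dashed lines mark 2-fold. Pancreas and stomach genes lie to the right, with medians of 4.96 and 2.04, B and plasma cell genes to the left, with a median of -0.75, and most members between the dashed lines.

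The Foxa factors, which open chromatin at endodermal genes and act in endocrine and goblet cells of the gut, were both higher in the knockout pool. Foxa1 (identifier 15375) was at 5.65 FPKM in the knockout pool, from 157 counts, and 2.26 FPKM in the control pool, from 64 counts, a count ratio of 2.50 (1.86 to 3.40). Foxa2 (identifier 15376) was at 4.07 FPKM, from 73 counts, in the knockout pool and 1.26 FPKM, from 23 counts, in the control pool, a ratio of 3.23 (2.00 to 5.42). Within each pool Foxa1 was the more abundant of them, at 1.39 times the level of Foxa2 in the knockout pool and 1.79 times in the control pool.

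Msx1, a homeodomain factor induced by BMP signals, and Foxd3, a forkhead factor of the neural crest, were called higher from low levels. Msx1 (identifier 17701) was at 2.64 FPKM in the knockout pool, from 44 counts, and 0.65 FPKM in the control pool, from 11 counts, a ratio of 4.08 (2.07 to 8.75). The antisense gene Msx1os lies inside Msx1 (chromosome 5, 37820564 to 37822751 within 37820491 to 37824585) and was at 2.37 FPKM in the knockout pool and 0.31 FPKM in the control pool. Whether the libraries kept the strand of the RNA is not given in the sources used here, so reads of Msx1 and Msx1os cannot be told apart, and these are not separate observations. Foxd3 (identifier 15221) was at 1.65 FPKM in the knockout pool, from 34 counts, and 0.24 FPKM in the control pool, from 5 counts, a ratio of 6.93 (2.70 to 22.7). Msx2, the paralogue of Msx1, was at 0.36 FPKM in the knockout pool and 0.26 FPKM in the control pool. Of 11 markers of enteric neurons and glia, which derive from the neural crest, 4 were measured and 0 were past 2-fold, with sums of 19.7 FPKM in the knockout pool and 18.6 FPKM in the control pool.

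RefSeq windows on GRCm38.p6, the same build as mm10, were found for 84 members, with 102 windows of the 250 bases before a start site. In 63.7% of these windows the observed over expected CpG ratio was above 0.6, against 34.0% of the 32851 windows of all genes, and the median GC content was 60.6% against 52.4%. Windows are shown for called members with an entry (Foxa1, Foxa2, Foxd3 and Msx1), for Pdx1, and for Cdx2, whose count ratio was 1.04. They are chr12:57546112-57546361 for Foxa1, chr2:148046970-148047219 for Foxa2 (the outermost of its 3 windows), chr4:99656049-99656298 for Foxd3, chr5:37824586-37824835 for Msx1, chr5:147269847-147270096 for Pdx1 and chr5:147307250-147307499 for Cdx2, with Foxd3 and Pdx1 on the plus strand and the others on the minus strand. The Foxa1 window lies inside the span of the gene (57540628 to 57548029), before an internal start site. All windows were searched on both strands for short motifs. The motif searched for forkhead proteins was TGTTTAC. That searched for Gata proteins was AGATAA. For the Cdx proteins, in which N stands for any base, it was TTTATNG. Homeodomain proteins in general were represented by TAATTA. Capitals mark the matches, which in these windows were to the forkhead motif alone, and no matches overlapped. Of the 6 windows of called members, 1 had the Gata motif, a window of Foxa2 that is not shown.
Foxa1: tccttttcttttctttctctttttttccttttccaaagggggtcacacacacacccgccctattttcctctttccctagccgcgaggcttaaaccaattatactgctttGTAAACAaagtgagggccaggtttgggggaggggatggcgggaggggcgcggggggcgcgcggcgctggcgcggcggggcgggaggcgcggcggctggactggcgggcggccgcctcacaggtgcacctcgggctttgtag
Foxa2: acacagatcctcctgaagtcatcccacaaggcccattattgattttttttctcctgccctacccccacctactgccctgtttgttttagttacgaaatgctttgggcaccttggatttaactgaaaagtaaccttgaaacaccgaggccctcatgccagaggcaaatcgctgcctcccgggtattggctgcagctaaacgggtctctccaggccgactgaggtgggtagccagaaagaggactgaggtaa
Foxd3: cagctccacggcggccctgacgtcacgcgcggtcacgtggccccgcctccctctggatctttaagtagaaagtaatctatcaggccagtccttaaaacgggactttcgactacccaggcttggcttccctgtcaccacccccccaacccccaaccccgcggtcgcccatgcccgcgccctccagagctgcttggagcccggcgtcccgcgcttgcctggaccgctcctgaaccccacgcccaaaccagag
Msx1: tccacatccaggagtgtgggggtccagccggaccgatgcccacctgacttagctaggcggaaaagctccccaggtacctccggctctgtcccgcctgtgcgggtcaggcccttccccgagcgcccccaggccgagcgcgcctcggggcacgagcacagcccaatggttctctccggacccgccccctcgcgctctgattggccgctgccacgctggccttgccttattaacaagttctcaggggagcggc
Pdx1: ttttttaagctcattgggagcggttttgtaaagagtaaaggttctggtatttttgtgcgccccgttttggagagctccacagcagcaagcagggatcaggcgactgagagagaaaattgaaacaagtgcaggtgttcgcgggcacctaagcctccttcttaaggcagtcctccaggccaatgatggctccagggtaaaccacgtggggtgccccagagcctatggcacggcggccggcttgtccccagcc
Cdx2: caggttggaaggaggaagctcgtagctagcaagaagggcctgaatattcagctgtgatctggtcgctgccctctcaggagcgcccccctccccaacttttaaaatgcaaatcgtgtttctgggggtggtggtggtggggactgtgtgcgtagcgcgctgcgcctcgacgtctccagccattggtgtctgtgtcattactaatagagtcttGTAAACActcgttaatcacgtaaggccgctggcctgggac
The forkhead motif was found in the windows of Foxa1, from base -141, and Cdx2, from base -40, and in no other member window, 2 of 102 in all. Over all genes it was in 3.17% of windows. The Gata motif was in 6.86% of the members' windows and 9.99% of all windows, the Cdx motif in 6.86% of the members' and 9.81% of all windows, and the homeobox motif in 8.82% of the members' and 4.84% of all windows. A match describes the letters and does not show that a factor binds there.

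Cdx1 and Cdx2 differed in how they compared between the pools. Cdx1 was at 64.3 FPKM in the knockout pool, from 971 counts, and 45.0 FPKM in the control pool, from 693 counts, a ratio of 1.43 (1.29 to 1.58). Cdx2 (identifier 12591) was at 58.6 FPKM in the knockout pool and 56.3 FPKM in the control pool, a ratio of 1.04 (0.955 to 1.13). The log2 ratio of Cdx2 was 0.06 as deposited and -0.01 with median ratio scaling. Cdx1 thus stood at 1.10 times the level of Cdx2 in the knockout pool and at 0.8 times in the control pool. Of 11 genes known as targets of Cdx2, 0 were at least 2-fold higher, 1 was lower and 9 had intervals below 1, against 12.5% of all measured genes, with a median log2 ratio of -0.29. That 1 gene was Gcg, the proglucagon gene of endocrine cells, at 0.63 FPKM in the knockout pool and 6.21 FPKM in the control pool. Several of the 9 genes had high counts, at which even small differences leave out 1. Vdr, for example, had 5931 counts in knockout and 6853 in control, a ratio of 0.882 (0.852 to 0.913). The count of 9 therefore partly reflects depth. Lactase, encoded by Lct, was at 161 FPKM in the knockout pool and 271 FPKM in the control pool, and Vil1, the brush border protein villin, at 719 FPKM in knockout and 879 FPKM in control. Cdh17, an intestinal cadherin, was at 494 FPKM in the knockout pool and 491 FPKM in the control pool, and Hnf4a, a nuclear receptor of enterocytes, at 198 FPKM in knockout and 193 FPKM in control.

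The 3 Gata factors of the epithelium did not all differ the same way. Gata4 (identifier 14463, chromosome 14) was at 61.8 FPKM in the knockout pool, from 1835 counts, and 51.7 FPKM in the control pool, from 1564 counts, a ratio of 1.20 (1.12 to 1.28). Gata5 (identifier 14464, chromosome 2) was at 37.7 FPKM, from 1085.5 counts, in the knockout pool and 23.8 FPKM, from 697.5 counts, in the control pool, a ratio of 1.59 (1.44 to 1.75). Gata6 (identifier 14465) was at 33.8 FPKM in the knockout pool and 38.6 FPKM in the control pool, a ratio of 0.875 (0.801 to 0.956). Gata5 was therefore above Gata6 in the knockout pool, at 1.12 times its level, and below it in the control pool, at 0.617 times. None of the 3 was past 2-fold. Gata5os, which overlaps Gata5, was at 3.15 FPKM in the knockout pool and 2.92 FPKM in the control pool, and reads of the overlap cannot be assigned to a strand.

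Partners and regional genes linked to Gata4 showed no call of 2-fold. Of 6 Gata partner genes, 4 were measured, 0 were called, and Zfpm1, the cofactor FOG1, was the most abundant, at 41.0 FPKM in the knockout pool and 33.8 FPKM in the control pool. Of 6 genes whose jejunal or ileal pattern depends on Gata4 in mice, 5 were measured and 0 were past 2-fold. Lct (161 FPKM in the knockout pool, 271 FPKM in the control pool) and Fabp1, a jejunal fatty acid binding protein (3179 FPKM in knockout and 4870 FPKM in control), had intervals below 1. The ileal genes Slc51a, of the bile acid exporter (135 FPKM in knockout and 109 FPKM in control), and Fabp6, an ileal bile acid binding protein (1.68 FPKM in knockout and 0.47 FPKM in control), were higher in the knockout pool, Fabp6 with an interval of 0.679 to 35.2 that includes 1. For Slc51b (74.8 FPKM in knockout and 72.0 FPKM in control) and Slc10a2 (0.88 FPKM in knockout and 0.59 FPKM in control), of the same list, the intervals also included 1.

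Barx2, a homeodomain factor of muscle and of epithelia (identifier 12023, chromosome 9), had the second lowest log2 ratio of the measured members, -0.66. It was at 17.9 FPKM in the knockout pool, from 277 counts, and 28.9 FPKM in the control pool, from 455 counts, a ratio of 0.620 (0.532 to 0.722), within 2-fold. Its paralogue Barx1, which specifies stomach mesenchyme, was at 0 in the knockout pool and 0.08 FPKM, from 1 count, in the control pool. Among 16 epithelial transcription factors of other families 0 were past 2-fold, 4 had intervals above 1 and 4 below. Hnf4g, a paralogue of Hnf4a, had the lowest ratio, at 72.4 FPKM in the knockout pool and 108 FPKM in the control pool, and Sox9, a crypt factor, the highest, at 4.72 FPKM in knockout and 2.41 FPKM in control.

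Hox expression was low in both pools and confined, at 1 FPKM or more, to paralogue groups 2 to 5, the front end of the clusters. Of the 27 Hox genes, 5 were measured, all of them in both pools, and 0 were past 2-fold or had an interval that left out 1. Hoxb2 was the highest, at 2.56 FPKM in the knockout pool and 2.93 FPKM in the control pool, followed in the knockout pool by Hoxb5 (1.75 FPKM, against 1.19 FPKM in control) and Hoxb4 (1.35 FPKM, against 1.23 FPKM in control). Hoxa5 was at 1.17 FPKM in the knockout pool and 1.51 FPKM in the control pool, and Hoxb3 at 1.12 FPKM in knockout and 1.33 FPKM in control. Summed over groups 1 to 5, the 14 genes in the table had 11.27 FPKM in the knockout pool and 11.26 FPKM in the control pool, with a count ratio of 0.990 (0.815 to 1.20). The 13 genes of groups 6 to 13 summed to 1.44 FPKM in the knockout pool and 1.32 FPKM in the control pool, a ratio of 0.958 (0.518 to 1.83). The sum over all Hox genes turned from a log2 ratio of 0.01 in FPKM to -0.02 in counts and -0.05 with median ratio scaling, so no direction can be given.

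**Figure D4:**
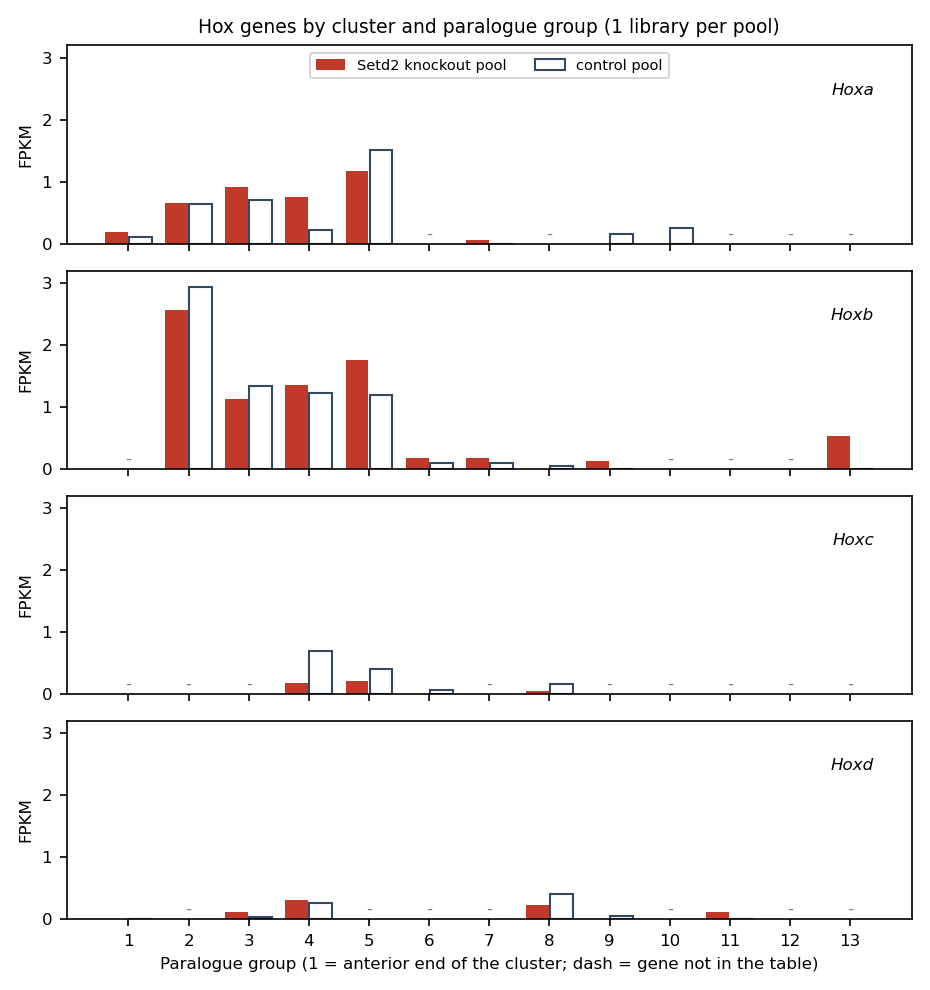
FPKM of the 27 Hox genes in the table by cluster (panels) and paralogue group, in the knockout pool (filled bars) and the control pool (open bars), 1 library each; a dash marks a position with no gene in the table. Levels of 1 FPKM or more occur in both pools in groups 2 to 5 of Hoxb and in group 5 of Hoxa.

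The clusters lie on chromosomes 6 (Hoxa), 11 (Hoxb), 15 (Hoxc) and 2 (Hoxd), and their sums were compared. Hoxb genes summed to 7.78 FPKM in the knockout pool and 6.90 FPKM in the control pool, Hoxa genes to 3.74 FPKM in knockout and 3.59 FPKM in control, and Hoxd genes to 0.77 FPKM in knockout and 0.76 FPKM in control; the interval of each count ratio included 1. The 4 Hoxc genes summed to 0.42 FPKM, from 8.82 counts, in the knockout pool and 1.33 FPKM, from 26.4 counts, in the control pool, a ratio of 0.341 (0.145 to 0.777). Each of the 4 was lower in the knockout pool: Hoxc4 had 3 counts there and 12 in control, Hoxc5 5 there and 10 in control, Hoxc6 0 there and 1 in control, and Hoxc8 0.82 there and 3.38 in control. Hoxc4 acts in B cells, where it binds the promoter of the antibody diversification enzyme. All 7 B and plasma cell markers had a lower level in the knockout pool, with sums of 28.9 FPKM in the knockout pool and 49.5 FPKM in the control pool, and none was at 0. Ms4a1, the B cell antigen CD20, was at 0.90 FPKM in the knockout pool and 5.73 FPKM in the control pool. The part of B cells in the Hoxc values was not tested. Hoxb13, a gene of the hind end of the gut, had 6 counts in the knockout pool and 0 in the control pool, and the interval of its count ratio lay above 1.20. Hoxa10 had 0 counts in the knockout pool and 5 in the control pool, and its interval, 0 to 1.11, included 1.

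The TALE homeodomain cofactors of Hox proteins were all measured, 7 of 7, and went both ways. Pbx3 was at 4.21 FPKM in the knockout pool and 2.25 FPKM in the control pool, a ratio of 1.87 (1.34 to 2.64), and Meis2 at 5.32 FPKM in knockout and 3.23 FPKM in control, a ratio of 1.62 (1.3 to 2.02). Meis3 had the lowest ratio of all measured members, at 1.40 FPKM, from 21 counts, in the knockout pool and 3.34 FPKM, from 52 counts, in the control pool. Its count ratio was 0.411 (0.235 to 0.695), and after 1 FPKM was added its log2 ratio was -0.85, within 2-fold. For Pbx2 (9.81 FPKM in the knockout pool, 11.4 in the control pool), Meis1 (1.64 FPKM in knockout and 1.07 FPKM in control) and Pbx4 (0.60 FPKM in knockout and 1.18 FPKM in control) the intervals included 1. Of 5 related TALE genes outside these families 3 were measured, and Tgif2, a repressor of TGF-beta targets, was at 4.30 FPKM in the knockout pool and 1.70 FPKM in the control pool, its relative Tgif1 at 11.4 FPKM in knockout and 6.2 FPKM in control and Pknox1, a Pbx partner, at 5.52 FPKM in knockout and 4.76 FPKM in control. None of those 3 was past 2-fold after 1 FPKM was added.

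Forkhead genes of the mesenchyme were all within 2-fold. Foxf1, a target of Hedgehog signals from the epithelium, was at 6.51 FPKM in the knockout pool and 5.46 FPKM in the control pool, Foxf2 at 4.77 FPKM in knockout and 3.57 FPKM in control, and Foxl1, which marks the telocytes under the crypts, at 1.68 FPKM in knockout and 1.67 FPKM in control. Nkx2-3, a homeodomain factor of gut mesenchyme, was at 11.8 FPKM in the knockout pool and 10.1 FPKM in the control pool. The intervals of all 4 included 1, the widest being that of Foxl1 (0.639 to 1.55). Of 11 fibroblast and telocyte markers 0 were past 2-fold, with sums of 159 FPKM in the knockout pool and 141 FPKM in the control pool. Intervals lay above 1 for 4 of them, against 28% of all measured genes, and included 1 for 7. The highest log2 ratios were those of Pdgfra, a receptor of these cells (9.70 FPKM in knockout and 5.57 FPKM in control), and Wnt5a, a Wnt ligand (3.75 FPKM in knockout and 1.99 FPKM in control). The lowest were those of Vim (24.2 FPKM in knockout and 25.15 FPKM in control) and Bmp5 (4.97 FPKM in knockout and 4.8 FPKM in control). Smooth muscle markers summed to 520 FPKM in the knockout pool and 528 FPKM in the control pool, with 0 of 9 past 2-fold. Of 28 homeobox genes outside these families, 13 were measured and 2 were at least 2-fold higher, against 2.78% of all measured genes. They were the mesenchymal gene Prrx1 (12.97 FPKM in the knockout pool, 4.53 in the control pool) and Hhex, of liver and blood vessels (4.92 FPKM in knockout and 1.57 FPKM in control). Intervals lay above 1 for 6 of the 13, against 28% of all measured genes, and below 1 for 0, against 12.5%.

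Foxm1, which drives genes of mitosis, was at 4.17 FPKM in the knockout pool and 3.17 FPKM in the control pool, a ratio of 1.31 (1.03 to 1.68). Of 16 Foxm1 target genes 0 were past 2-fold, 12 had intervals above 1, against 28% of all measured genes, and 0 below, against 12.5%, and their median log2 ratio was 0.36. Cdc20, which activates the ubiquitin ligase of mitotic exit, reached 21.1 FPKM in the knockout pool and 11.2 FPKM in the control pool, Ccnb1, a mitotic cyclin, reached 13.7 FPKM in knockout and 7.38 FPKM in control, and Cdc25b, a mitotic phosphatase, reached 7.28 FPKM in knockout and 7.50 FPKM in control.

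The Foxo factors, several of which insulin signals keep out of the nucleus, were all measured. Foxo3 was at 14.4 FPKM in the knockout pool and 14.9 FPKM in the control pool and Foxo4 at 11.95 FPKM in knockout and 11.8 FPKM in control, both with intervals that include 1. Foxo1 was at 7.16 FPKM in the knockout pool and 8.50 FPKM in the control pool, a ratio of 0.842 (0.729 to 0.973), and Foxo6 at 3.37 FPKM in knockout and 2.15 FPKM in control, a ratio of 1.57 (1.08 to 2.31). Of 17 Foxo targets 16 were measured, 0 were past 2-fold, and 5 had intervals below 1, against 12.5% of all measured genes, and 0 above, against 28%; the stress gene Cited2 was at 13.7 FPKM in the knockout pool and 20 FPKM in the control pool and Sesn1, a sestrin, at 34.5 FPKM in knockout and 49.4 FPKM in control. The median log2 ratio of this list was 0.01.

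Other widely expressed forkhead genes lay within 2-fold. Foxj3 was at 19.5 FPKM in the knockout pool and 18.7 FPKM in the control pool, and Foxp4 at 16.1 FPKM in knockout and 14.2 FPKM in control, the interval of Foxp4 starting just above 1 (1.004 to 1.28). Foxk1 (6.74 FPKM in the knockout pool, 5.52 in the control pool), Foxk2 (8.50 FPKM in knockout and 7.11 FPKM in control) and Foxp1 (4.46 FPKM in knockout and 3.2 FPKM in control) had intervals above 1. Foxj2 (3.65 FPKM in the knockout pool, 4.54 in the control pool) and Foxn3 (2.29 FPKM in knockout and 3.42 FPKM in control) had intervals below 1, and that of Foxn2 (4.91 FPKM in knockout and 5.04 FPKM in control) included 1.

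The endocrine members Pax4, Nkx2-2, Pax6 and Isl1 were low, at 1.25 FPKM or less in both pools. Pax4, which directs endocrine progenitors, was at 1.02 FPKM, from 12 counts, in the knockout pool and 0.17 FPKM, from 2 counts, in the control pool, a ratio of 6.11 (1.36 to 56.2). Nkx2-2 was at 1.25 FPKM in the knockout pool and 1 FPKM in the control pool, Pax6, an activator of Gcg, at 0.43 FPKM in knockout and 0.39 FPKM in control, and Isl1, a LIM homeodomain factor of endocrine cells, at 0.18 FPKM in knockout and 0.04 FPKM in control. Of 15 enteroendocrine genes 14 were measured, 0 were at least 2-fold higher and 2 lower, Gcg (0.63 FPKM in the knockout pool, 6.21 in the control pool) and Nts, the neurotensin gene (0.57 FPKM in knockout and 2.78 FPKM in control). Ghrl, the ghrelin gene, was at 52.8 FPKM in the knockout pool and 33.1 FPKM in the control pool, Chga, chromogranin A, at 41.0 FPKM in knockout and 26.1 FPKM in control, and Gip, a duodenal hormone, at 44.5 FPKM in knockout and 80.9 FPKM in control.

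Among the blood-lineage members, Gata2, which acts in blood progenitors, mast cells and endothelium, was at 1.09 FPKM, from 31 counts, in the knockout pool and 0.24 FPKM, from 7 counts, in the control pool. Its count ratio was 4.51 (1.95 to 12.1), but its log2 ratio of 0.75 after 1 FPKM was added did not reach the threshold. Gata3, of T cells and innate lymphocytes, was at 0.21 FPKM in both pools from 6 counts each, and Gata1, the erythroid and mast cell factor, had 1 count in the knockout pool and 0 in the control pool. Of 7 mast cell markers 5 were measured and 3 were at least 2-fold higher, against 2.78% of all measured genes. The markers summed to 67.7 FPKM in the knockout pool and 16.4 FPKM in the control pool. Mcpt1, a mast cell protease, was at 38.9 FPKM in knockout and 6.85 FPKM in control, and Ms4a2 was at 0 in the control pool. Fcer1a (0.45 FPKM in control) and the called gene Cpa3 (0.31 FPKM in control) passed the filter through the knockout pool alone. The count of mast cell calls therefore partly reflects the filter. Hdc went the other way, with 12 counts in knockout and 17 in control, and its interval (0.313 to 1.60) included 1. All 4 measured erythroid genes, which were globins, were at least 2-fold higher. The erythroid list summed to 241 FPKM in the knockout pool and 67.1 FPKM in the control pool. Of its genes under 1 FPKM in both pools, Klf1 was lower in the knockout pool, with 2 counts there and 11 in control. The count ratio of Klf1 was 0.185 (0.020 to 0.849). Slc4a1 (3 counts in knockout and 0 in control), Alas2 and Epor had intervals that included 1. Endothelial markers summed to 91.1 FPKM in the knockout pool and 71.9 FPKM in the control pool, with 1 of 10, the cadherin Cdh5, past 2-fold. The part of mast cells or vessels in the level of Gata2 was not tested. Foxp3, the factor of regulatory T cells, was at 1.34 FPKM in the knockout pool and 0.98 FPKM in the control pool, with an interval of 0.846 to 2.24, and 0 of 10 T cell markers were past 2-fold, with sums of 56.6 FPKM in knockout and 58.8 FPKM in control.

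Pax8, a thyroid and kidney factor, was at 3.99 FPKM in the knockout pool and 4.40 FPKM in the control pool, Six5 at 2.34 FPKM in knockout and 1.58 FPKM in control, and Nkx2-1, a thyroid and lung factor, at 1 FPKM in knockout and 0.75 FPKM in control, each with an interval that included 1. Of the 78 members under 1 FPKM in both pools, 8 were at 0 in both and 24 at 0 in 1 pool, and 46 of all 133 members had at most 3 counts in each library. The Dlx, Irx, Lhx and Isl genes were all among the 78: the 6 Dlx genes reached at most 0.31 FPKM in the knockout pool and 0.14 FPKM in the control pool, the 4 Irx genes 0.29 FPKM in knockout and 0.14 FPKM in control, the 6 Lhx genes 0.38 FPKM in knockout and 0.19 FPKM in control, and the 2 Isl genes 0.25 FPKM in knockout and 0.06 FPKM in control. Differences between the pools were not detectable at this depth for most of these 78; their counts in the higher library had a median of 2.98 and a maximum of 49. The members nearest to the threshold on either side were Hoxa3 (0.91 FPKM in the knockout pool, 0.71 in the control pool) and Nkx2-1 (1 FPKM in knockout and 0.75 FPKM in control).

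Of 15 genes of Polycomb proteins, which keep Hox and other homeobox genes silent, 15 were measured and 0 were past 2-fold. Intervals lay above 1 for 4 of them, against 28% of all measured genes, and below 1 for 1, against 12.5%. Phc2, the most abundant, was at 27.5 FPKM in the knockout pool and 24.4 FPKM in the control pool, Cbx8 at 7.09 FPKM in knockout and 4.53 FPKM in control and Jarid2 at 7.57 FPKM in knockout and 9.02 FPKM in control, with a median log2 ratio of 0.16.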

How the data were processed

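Per the labels' protocols, the authors mapped reads to mm10 with BWA/Bowtie (Bowtie2 in the submitters' processing notes) and quantified genes with RSEM; versions are not given in the sources used here. The deposited tables gave RSEM expected counts, in which reads that fit several genes are divided among them, and FPKM, as named in the file headers. A gene not listed in a library was taken as 0 counts there.

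Members were chosen by symbol, and members and lists were chosen with earlier results of these data known. Some genes are not reported here. Each genotype had 1 library, so the planned comparison was descriptive. Log2 ratios used a pseudocount of 1 FPKM and a filter of 1 FPKM in at least 1 library, and understate the change of low genes. Count ratios were scaled to library totals, with 95% Clopper-Pearson intervals on rounded expected counts. There were 22 lists with 246 genes. Any measured member could be named, members under 1 FPKM where a Hox cluster, a paralogue set or an antisense transcript was described, and from a list the 2 highest and the 2 lowest log2 ratios and the most abundant gene; others, such as list markers at 0, were chosen after their values were seen. The alternatives were other pseudocounts, filters, thresholds and scalings. The scripts were tested on simulated data. Python 3.11.15, NumPy 2.4.6, pandas 2.3.3, SciPy 1.17.1 and matplotlib 3.10.9 were used. Positions and promoter windows came from RefSeq on GRCm38.p6.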

Additional observations from a re-analysis of the deposited data

How the results depend on the processing

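No paired analysis was possible because each genotype had 1 library, and for the same reason no library could be left out. The 7 members called at least 2-fold higher became 9 with a pseudocount of 0.1 or 0.01 FPKM, with TPM and with scaled counts, 6 with median ratio scaling, 2 with a filter of 5 FPKM, against 2.18% of all genes so filtered, and 12 at a 1.5-fold threshold, against 8.01% of all measured genes; the members added in the settings with 9 were Gata2 and Pax4. The 0 called lower became 1, Meis3, with either smaller pseudocount and with scaled counts, and 2, Meis3 and Barx2, at 1.5-fold, against 3.46%. Over all measured genes, 369 higher and 170 lower calls became 699 and 282 with a pseudocount of 0.1 FPKM, 758 and 301 with 0.01 FPKM, 720 and 293 with scaled counts, 515 and 205 with TPM and 335 and 182 with median ratio scaling. Intervals above and below 1 numbered 23 and 6, and 11 and 3 with the filter of 5 FPKM, which leaves 25 members. The share of all genes with such intervals under the 5 FPKM filter was not computed. The counts of 11 and 3 are therefore not read as a result about the members. The median log2 ratio of members ranged from 0.09 without a filter to 0.29. Log2 ratios of summed levels moved with the most abundant member left out, from 0.28 to 0.51 for Cdx, from 0.08 to 0.28 for Meis and Pbx and from 0.48 to 0.29 for the other homeobox, Pax and Satb genes, which were at 0.31 in counts. The forkhead sum was 0.22, and 0.16 with median ratio scaling. Of 275 values of single members under alternatives, 267 moved by less than their counting error and 0 called values turned sign. The log2 ratios of Cdx2, Foxj3, Foxo4 and Foxl1, within 0.06 of 0, turned negative with median ratio scaling.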
